A study of Saccharomyces cerevisiae with 12 samples.

Results

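The comparison described here sets yeast cultures after 3 h in concanamycin A against cultures after 1 h, to show which early expression changes receded and which changes began between these times. It used 6 of the study's 12 RNA-seq libraries, 3 at 3 h and 3 at 1 h, chosen by the exposure time in their labels, and every feature of the count table. Of 6216 features, 5615 had enough reads to be tested. All libraries were of the wild-type Saccharomyces cerevisiae strain BY4741, which is haploid, has mating type a and carries deletions in several nutrient-marker genes, grown exponentially in the rich medium YPD with 500 nM concanamycin A, sampled at 0, 1, 3 or 6 h. The compound was therefore present in both groups compared, and cultures kept for the same times without it were not analysed here, so exposure and time in culture cannot be told apart. RNA was depleted of ribosomal RNA and sequenced from strand-preserving libraries.

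Concanamycin A inhibits the V-ATPase, the proton pump that acidifies the vacuole, the yeast counterpart of the lysosome. The vacuole stores phosphate as polyphosphate, amino acids such as arginine, and metals including iron, and its acidity drives much of the exchange of these stores with the cytosol. Yeast senses phosphate through the Pho4 pathway, iron through Aft1 and Aft2, sterols and oxygen through Upc2, protein misfolding through Hsf1 and Rpn4, and oxidants through Yap1. Each of these factors controls a set of target genes.

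The libraries at 3 h and 1 h held between 8580004 and 10479391 counts. Genes of mating type a were present in all 6 (STE2 at 1954 to 2651 counts at 3 h and 5180 to 6329 at 1 h), while the genes of the alpha pheromone, MF(ALPHA)1 and MF(ALPHA)2, had at most 3 counts in any of them. Other alpha markers were not absent, with SAG1 at 162 to 232 counts and STE3 at 30 to 71. Of the marker genes listed as deleted in BY4741, LEU2, URA3 and MET17 had 0 to 3 counts, but HIS3 had 577 to 860. Sporulation genes, which were not expected, included IME2 at 170 to 204 counts, SPO11 at 36 to 45, SPR3 at 15 to 30 and SPS4 at 1 to 17. In no library at 3 h or 1 h did more than 11 features lie over 2-fold above, or more than 11 below, the mean of the other libraries of its time. In 0 h replicate 3, 148 features lay that far below, and in 0 h replicate 1, 63 lay that far above. The 0 h libraries enter the first-hour values, the comparisons of 3 h with 0 h quoted below and the shared estimate of spread. Whether the libraries of one time are separate cultures is not in the labels. The p-values reflect variation among these samples only, which may be technical. In bulk RNA, fewer cells expressing a gene and less RNA per cell cannot be told apart.

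Between 1 h and 3 h, 951 features were higher at 3 h, or 16.9% of those tested, and 986 were lower, or 17.6% (edgeR quasi-likelihood test, Benjamini-Hochberg adjusted p under 0.05). Most of these changes were small. At least 2-fold changes numbered 81 higher and 48 lower. All 3 libraries at 3 h lay above all 3 at 1 h for 1514 features and below them for 1549. Scaled to total counts with no composition factor, the median of all features lay at a log2 change of 0.13 instead of 0.01, and the calls became 1734 higher and 552 lower, so that 75.9% of calls were higher instead of 49.1%. The direction of small changes across many genes therefore depends on the scaling, and the changes below are given relative to the composition-scaled median. Among features other than nuclear reading frames, 8 of 74 small nucleolar and nuclear RNAs were higher and 5 lower, and 1 of 19 mitochondrial reading frames was higher and 0 lower.

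Placed beside the first hour, in which 1375 features were higher at 1 h than at 0 h, or 24.5%, and 1315 lower, or 23.4%, these changes fell into 6 classes. Early rises that receded, higher at 1 h than at 0 h and then lower at 3 h than at 1 h, numbered 468. Early falls that receded numbered 411. Rises that began after 1 h, with no first-hour call, numbered 431, and falls that began after 1 h numbered 316. Early rises that continued numbered 109, against 202 early falls that continued. The 1 h libraries stand in both comparisons, so an error in a 1 h mean enters them with opposite signs and adds to the receding classes, and a missing first-hour call does not show that nothing changed.

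Most features that moved in the first hour were not called again: 798 of the 1375 early rises, or 58%, and 702 of the 1315 early falls, or 53.4%. Of the early rises, 34% receded and 7.93% continued, and of the early falls 31.3% receded and 15.4% continued. Among first-hour changes of at least 2-fold, 64 of 141 rises receded and 17 continued, and 49 of 182 falls receded and 34 continued. The receding features gave back a median of 83.3% of their first-hour log2 rise and 84.4% of their first-hour log2 fall, which is high by construction since they were chosen for a reversal. Over all 1375 early rises the median was 26.5%, and over all 1315 early falls 18.7%. At 3 h, 236 of the 468 receding rises were not called against 0 h, 150 were still higher and 82 were lower than at 0 h. Of the 411 receding falls, 240 were not called against 0 h, 120 were still lower and 51 were higher than at 0 h. Of the 431 rises that began after 1 h, 307 were higher at 3 h than at 0 h and 124 were not called against 0 h. Of the 316 falls that began after 1 h, 241 were lower at 3 h than at 0 h and 75 were not called.

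**Figure D1:**
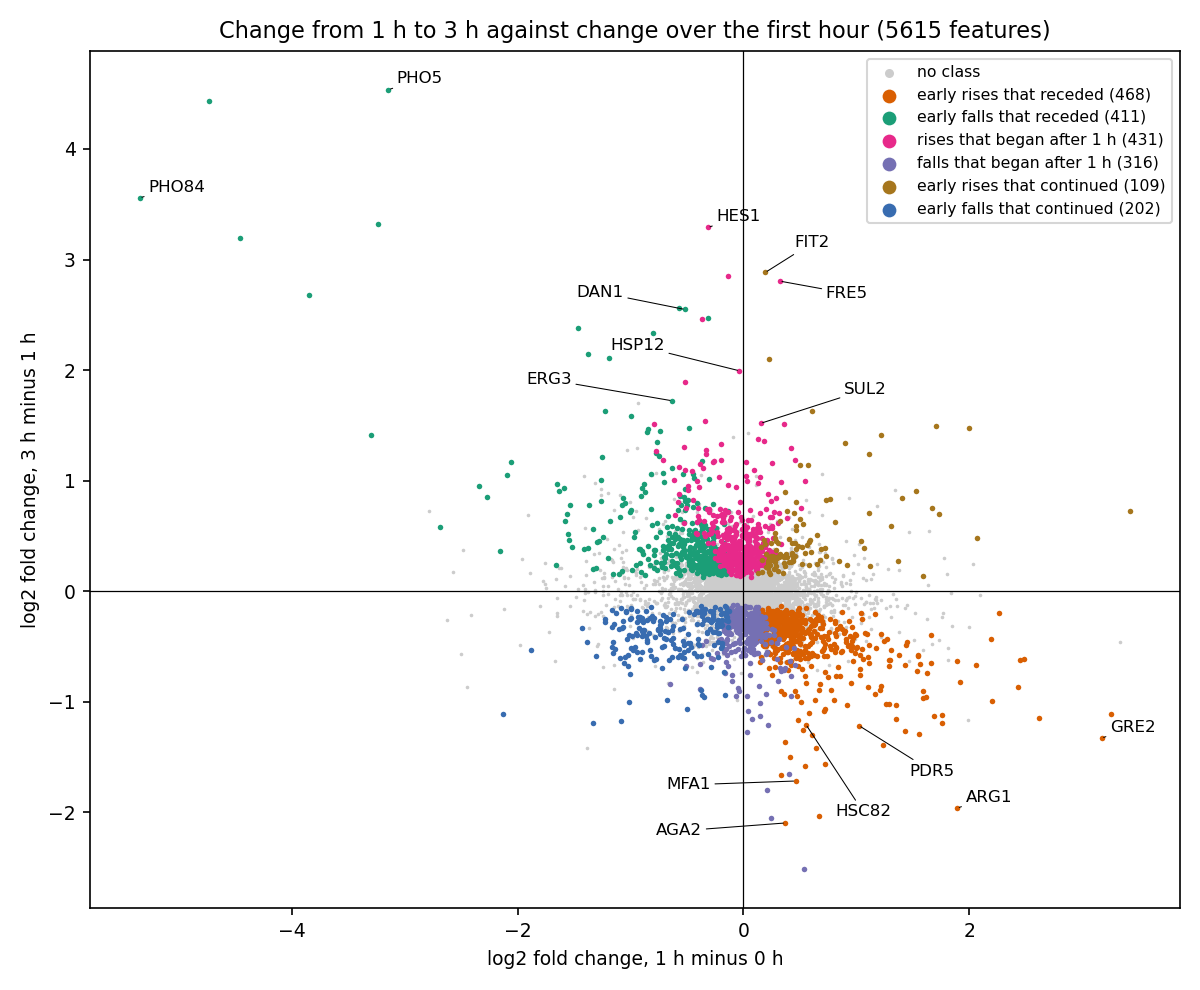
Each point is 1 of 5615 features. The log2 fold change at 3 h against 1 h (vertical) is plotted against that at 1 h against 0 h (horizontal), with the 6 classes in colour. Both axes use the 1 h libraries, so part of the downward slope comes from construction. PHO5 and PHO84 lie far to the upper left, GRE2 and ARG1 to the lower right, and HES1 and FRE5 near the top with small first-hour changes.

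Described by gene list, among lists of at least 7 tested members, the largest shares of members that rose were those of histones, phosphate, hypoxic, sterol and iron genes, and the largest shares that fell were those of a-specific mating, proteasome, drug-resistance, arginine and chaperone genes. Their counts and values follow, each to be read against the 16.9% and 17.6% of all features called higher and lower.

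**Figure D2:**
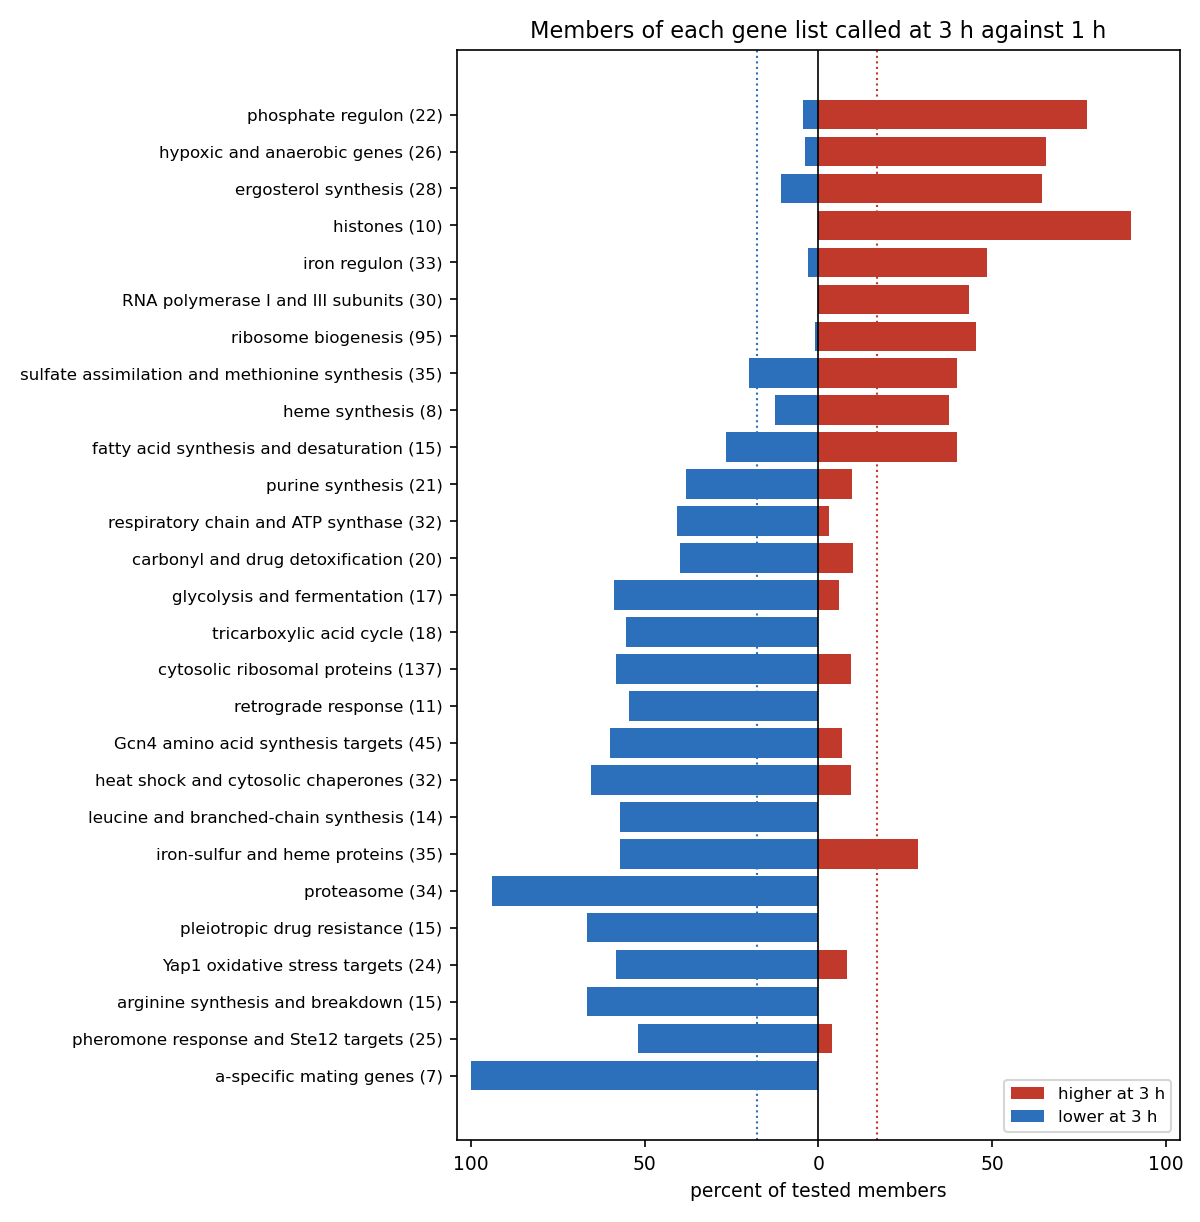
For 27 gene lists the bars give the percentage of tested members higher at 3 h than at 1 h (right, red) and lower (left, blue), with the number of tested members in brackets. Dotted lines mark the shares among all features, 16.9% higher and 17.6% lower. The lists shown are those of at least 7 tested members with at least 40% of them called and a median log2 change of at least 0.1 in size.

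The strongest increases were in the phosphate regulon, which had fallen in the first hour. Of 22 members tested, 17 were higher at 3 h than at 1 h and 1 was lower, with a median log2 change of 0.76 beside 0.01 for all features. In the first hour 19 of the 22 had fallen and 2 had risen, with a median of -1.19, and 16 members were early falls that receded. Pho4, the activator of these genes, binds the palindrome CACGTG, which the sulfur regulator Cbf1 also binds. The letters occur within 500 bases before the start codon in 17 of the 22 promoters, against 6.33% of 5495 nuclear reading frames, and in the shorter window of 250 bases before to 50 after the start in 7 of 22, against 3.02%. In the shorter window 3 of the 7 genes with a match were higher at 3 h, with a median log2 change of 0.07, and 14 of the 15 without one, with a median of 0.78. Within 500 bases 13 of the 17 with a match were higher, with a median of 1.05, and 4 of the 5 without one, with a median of 0.45. Both strands were searched, and a match is a description of the sequence, not a shown binding site. The stretches around the match nearest the start are given for the 3 phosphate genes with the largest increases, from RefSeq's genome of build R64, with the letters in capitals. They lie at chrII:431179-431224 for PHO5, chrII:798820-798865 for PHO89 and chrXIII:26189-26234 for PHO84, all on the minus strand, with the match starting 253, 323 and 414 bases before the start. The capitals at the left end of the PHO84 stretch are the end of another match.
PHO5: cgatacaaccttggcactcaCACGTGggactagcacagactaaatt
PHO89: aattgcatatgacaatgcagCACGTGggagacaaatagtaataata
PHO84: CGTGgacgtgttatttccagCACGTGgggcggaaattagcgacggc

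PHO5 (YBR093C, chromosome II, 429548 to 430951, minus strand) encodes the secreted acid phosphatase that frees phosphate outside the cell. It had 302, 301 and 312 CPM (the gene's counts relative to the size of its library, scaled for composition) in the 3 h libraries, against 12.7, 13.4 and 13.3 in the 1 h libraries. No library at 3 h came near any at 1 h, and the 3 h values also lay above the 105 to 122 CPM of the 0 h libraries. The log2 change was 4.54 ± 0.08 (SE, edgeR adjusted p = 4.05e-13), after a first-hour change of -3.14. PHO5 thus passed its level at 0 h, with a log2 change of 1.39 at 3 h against 0 h.

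PHO84 (YML123C, chromosome XIII, 24037 to 25800, minus strand), the high-affinity phosphate transporter, recovered only in part. It had 277, 315 and 318 CPM at 3 h and 26.4, 25.8 and 25.04 CPM at 1 h, a log2 change of 3.56 ± 0.17 (edgeR adjusted p = 6.22e-08). The groups stood far apart, yet the 3 h libraries remained below the 892 to 1287 CPM of the 0 h libraries. PHO89, the sodium-coupled phosphate transporter, had 76.3, 65.4 and 63.3 CPM at 3 h and 3.76, 2.44 and 3.26 CPM at 1 h. Its log2 change was 4.44 ± 0.46 (edgeR adjusted p = 6.07e-05), with an SE several times that of PHO5, and its 0 h libraries spread from 38.6 to 116 CPM.

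SPL2, which lowers low-affinity phosphate uptake, rose by 3.20 ± 0.17 on the log2 scale (edgeR adjusted p = 2.15e-08). The acid phosphatases PHO11 and PHO12 rose by 3.33 and 2.68, but they are 99.7% identical over their length, so how reads were divided between them is uncertain. The polyphosphate polymerase subunits VTC3, VTC4 and VTC1 rose by 1.41, 1.05 and 0.97 after first-hour changes of -3.29, -2.09 and -1.65. The VTC genes recovered less of their loss than PHO5 did, and at 3 h VTC3 still stood at a log2 change of -1.88 against 0 h. PHO81, the inhibitor of the Pho80-Pho85 kinase, rose by 0.49. The vacuolar phosphate exporter PHO91 was the 1 member that fell, by 0.21, and it lost that call without any 1 of the 3 h or 1 h libraries, at edgeR adjusted p of 0.062 to 0.0905, and with total counts. The low-affinity transporter PHO87, PHM7, DDP1 and PHO86 did not pass the test, with log2 changes of -0.09, -0.11, -0.02 and 0.07. PHO4 itself stood at -0.15 and did not pass the test (edgeR adjusted p = 0.509).

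**Figure D3:**
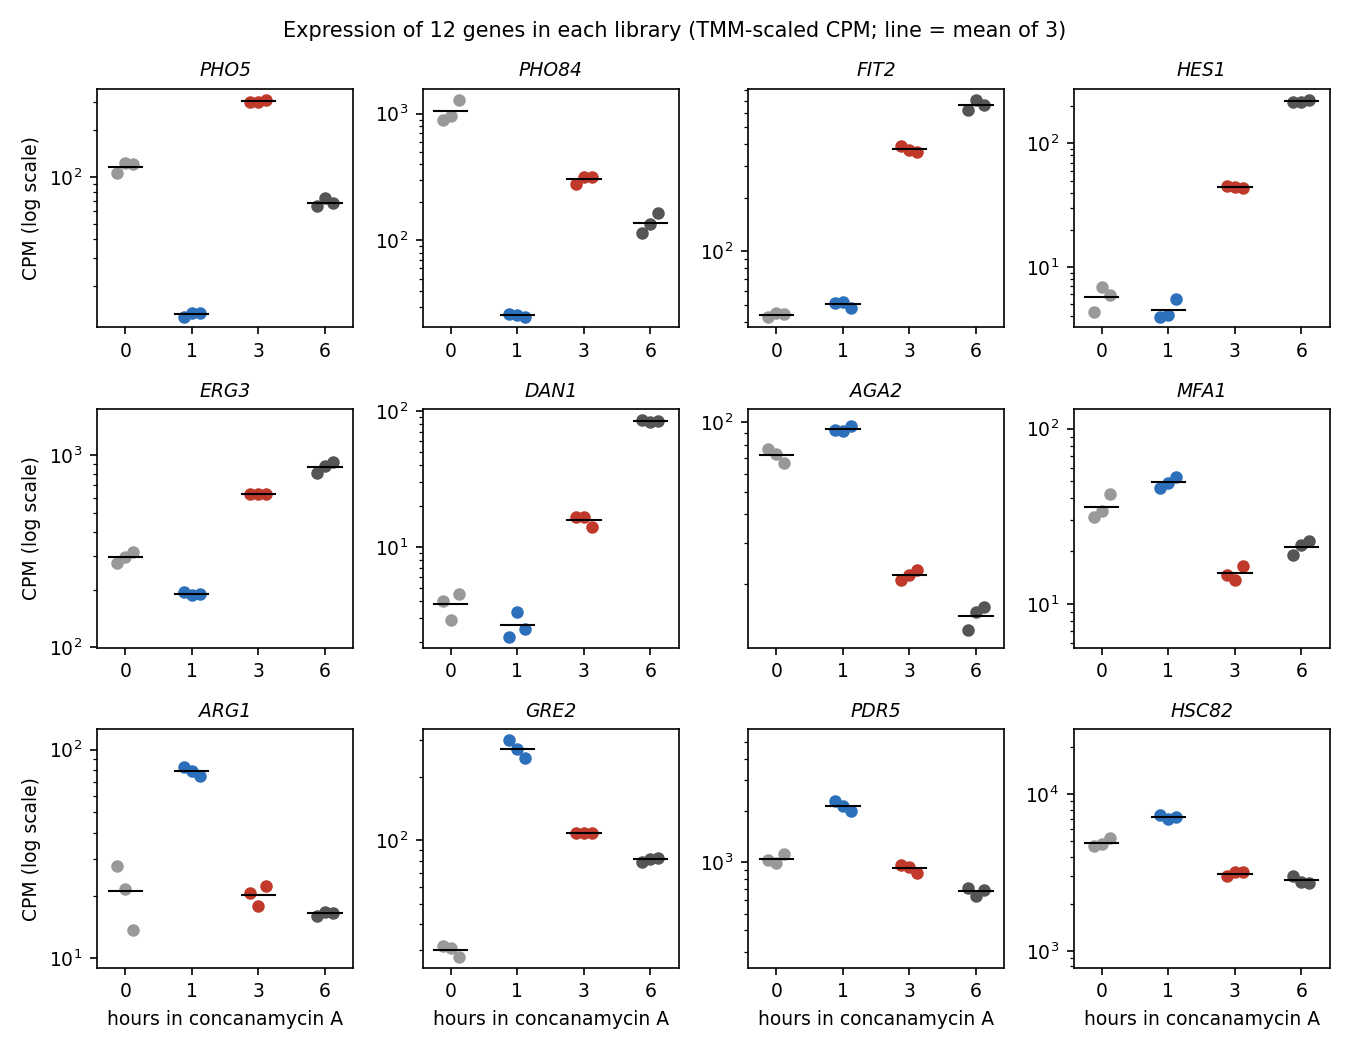
Composition-scaled CPM of 12 genes in each library (points, log axis) at 0, 1, 3 and 6 h in concanamycin A, with the mean of the 3 libraries as a line. The red 3 h points and blue 1 h points do not overlap in any panel. Genes named for the largest changes, here and in the text, were chosen with no such overlap. PHO5 and PHO84 drop at 1 h and return at 3 h, FIT2, HES1, ERG3 and DAN1 go up at 3 h, and the last 6 genes are lower at 3 h than at 1 h.

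Part of the iron regulon rose between 1 h and 3 h, including 10 of the 22 members that had already risen in the first hour. The iron regulon list holds Aft1 and Aft2 targets and other iron-handling genes, and 16 of 33 tested members were higher at 3 h, 1 was lower and the median log2 change was 0.26. In the first hour 22 of 33 had already risen, with a median of 0.68. Of the 16, 10 were early rises that continued, 4 began after 1 h and 2 were receding falls. The members with the largest increases were not those with the largest first-hour rises: they encode cell-wall mannoproteins that hold iron-loaded siderophores, and reductases and transporters of siderophores.

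FIT2 (YOR382W, chromosome XV, 1059531 to 1059992, plus strand) had 388.5, 369 and 359 CPM at 3 h, against 51.2, 52.2 and 47.9 CPM at 1 h. The groups were well separated, and the 1 h values were close to the 43.0 to 44.8 CPM at 0 h. The log2 change was 2.88 ± 0.06 (edgeR adjusted p = 3.46e-12), after 0.19 in the first hour. FIT3 (YOR383C, 1060441 to 1061055, minus strand) lies beside it and had 444, 406 and 389 CPM at 3 h and 77.6, 75.8 and 70.5 CPM at 1 h. Its log2 change was 2.47 ± 0.07 (edgeR adjusted p = 5.96e-11), after -0.31 in the first hour. FRE5 (YOR384W, 1061564 to 1063648, plus strand), of the ferric reductase family, had 16.0, 20.4 and 21.3 CPM at 3 h and 2.82, 3.42 and 2.02 CPM at 1 h. It rose by 2.80 ± 0.19 (edgeR adjusted p = 1.99e-07). These 3 genes stand in a row on chromosome XV, and FIT3 and FRE5 are read away from each other out of a shared intergenic stretch.

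FIT1, on chromosome IV, rose by 2.56 ± 0.14, and the siderophore transporters ARN2, ARN1 and SIT1 rose by 1.36, 1.24 and 0.48, the last of which lost its call without any 1 of the 3 h or 1 h libraries, at edgeR adjusted p of 0.0575 to 0.103. The permease FTR1 rose by 0.85, and TIS11, whose product promotes decay of transcripts for iron-using proteins, rose by 0.70. The ferroxidase FET3, Ftr1's partner, had 1452, 1417 and 1447 CPM at 3 h and 1324, 1349 and 1298 CPM at 1 h. All 3 libraries at 3 h lay above those at 1 h, but the log2 change of 0.12 did not pass the test (edgeR adjusted p = 0.0715), after a first-hour rise of 1.06. FET3 passed it without 0 h replicate 3, with the 3 h and 1 h libraries alone and with total counts. The copper transporter CCC2, the heme oxygenase HMX1 and the scaffold ISU2 did not pass the test either, at -0.12, 0.25 and -0.19. The biotin transporter VHT1 fell by 0.41, having risen by 0.68. AFT1 stood at -0.01.

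The Aft1 core element TGCACCC, or its reverse complement GGGTGCA, occurs in 13 of the 33 iron promoters in the 300-base window, against 1.31% of all, and in 22 of 33 within 500 bases, against 2.37%. In the 300-base window 9 of the 13 genes with a match were higher at 3 h and 0 lower, and of the 20 without one, 7 were higher and 1 lower. Within 500 bases, of the 22 genes with a match, 14 were higher at 3 h and 0 lower, and of the 11 without one, 2 were higher and 1 lower. The stretches of the 3 neighbouring genes are shown because they moved together. They lie at chrXV:1059380-1059426 (FIT2, plus strand), chrXV:1061213-1061259 (FIT3, minus strand) and chrXV:1061314-1061360 (FRE5, plus strand), with capitals marking the match that starts 131, 184 and 230 bases before the start.
FIT2: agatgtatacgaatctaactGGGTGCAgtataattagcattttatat
FIT3: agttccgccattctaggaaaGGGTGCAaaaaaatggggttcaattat
FRE5: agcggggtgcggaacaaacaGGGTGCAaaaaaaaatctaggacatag

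Sterol synthesis genes and genes of low-oxygen growth rose together after 1 h. Of 28 ergosterol genes 18 were higher at 3 h and 3 were lower, with a median log2 change of 0.47. In the first hour 8 had risen and 9 fallen, with a median of 0.03, and the 18 split into 8 receding falls, 8 rises that began after 1 h and 2 continuing rises. Of 26 hypoxic and anaerobic genes 17 were higher at 3 h and 1 was lower, with a median of 0.52 after -0.27 in the first hour. Both lists contain targets of Upc2, the activator that responds to low sterol.

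HES1, of the oxysterol-binding protein family, had 45.3, 44.1 and 43.8 CPM at 3 h, against 3.97, 4.10 and 5.47 CPM at 1 h. It rose by 3.29 ± 0.12 (edgeR adjusted p = 9.01e-10), while its first-hour change of -0.31 did not pass the test. The 1 h and 0 h libraries overlapped, and those at 3 h lay far above both. ERG3, the sterol C-5 desaturase, had 629, 631 and 629 CPM at 3 h and 194, 188 and 189.6 CPM at 1 h, a log2 change of 1.72 ± 0.06 (edgeR adjusted p = 4.53e-10). After a first-hour fall of 0.63 it ended above the 276 to 315 CPM of the 0 h libraries. ERG25, the C-4 methyl sterol oxidase, rose by 1.45 ± 0.08, and ERG11, the lanosterol demethylase, by 0.94 ± 0.07. ERG11 thereby came back to its 0 h level, with a log2 change of 0.04 at 3 h against 0 h that did not pass the test.

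The larger increases lay in the late, oxygen-using part of the pathway, from squalene to ergosterol: ERG1, ERG11, ERG24, ERG25, ERG26, ERG27, ERG6, ERG2, ERG3, ERG5 and ERG4 rose, by 0.46 to 1.72, while ERG7, lanosterol synthase, stood at 0.10 and did not pass the test. Among the genes before squalene epoxidation, HMG2 and MVD1 rose by 0.16 and 0.20, ERG10, HMG1 and ERG9 did not pass the test at -0.07, 0.09 and -0.04, and IDI1 and ERG20 fell by 0.20 and 0.19. HMG2 lost the call without any 1 of the 3 h libraries or 1 h replicate 2, ERG20 without 3 h replicate 2 or 1 h replicate 1, and IDI1 and ERG20 with total counts. The sterol acyltransferase ARE2, which makes sterol esters, fell by 0.53. Its counterpart ARE1 stood 0.43 higher, but it overlaps YCR050C on the opposite strand by 298 bases and its count is uncertain, since the strand setting of the counting is not given in the sources used here. UPC2 had 214, 204 and 167 CPM at 3 h and 68.9, 64.5 and 61.5 CPM at 1 h, and rose by 1.59 ± 0.10 (edgeR adjusted p = 1.54e-07).

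Of the low-oxygen genes, DAN1, a cell-wall mannoprotein of anaerobic cells, had 16.6, 16.6 and 14.2 CPM at 3 h and 2.19, 3.32 and 2.49 CPM at 1 h. The groups did not overlap, and the log2 change was 2.55 ± 0.15 (edgeR adjusted p = 5.73e-08). TIR1, a related mannoprotein, rose by 2.10 ± 0.06, with 192, 185 and 174 CPM at 3 h and 42.9, 42.4 and 42.8 CPM at 1 h. SET4, a SET-domain protein, rose by 2.85 ± 0.17. The fatty acid desaturase OLE1 rose by 1.02, the heme synthesis enzyme HEM13 by 0.82 and the flavohemoglobin YHB1, which is in neither list, by 1.21. ROX1, the repressor of hypoxic genes, fell by 0.36, but lost the call without 3 h replicate 1 or 2 or 1 h replicate 2 or 3, at edgeR adjusted p of 0.0767 to 0.12, and with total counts. The related mannoproteins TIR4 and DAN4 did not pass the test at 0.24 and 0.38.

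The sterol response element TCGTATA occurs in 9 of the 28 ergosterol promoters within 500 bases, against 6.92% of all, and in 3 of 28 in the 300-base window, against 4.26%. Within 500 bases, of the 9 with a match 7 were higher at 3 h and 0 lower, with a median log2 change of 0.86. Of the 19 without one, 11 were higher and 3 lower, with a median of 0.20. In the 300-base window 1 of the 3 with a match was higher and 0 lower, with a median of 0.16. Of the 25 without one, 17 were higher and 3 lower, with a median of 0.475. Within 500 bases 3 of the 6 hypoxic genes with a match were higher, and 14 of the 20 without one, both with a median of 0.52. Stretches are shown for the sterol genes with the largest increases and for DAN1. ERG3 lies at chrXII:253555-253601 (plus strand, match starting 286 bases before the start), ERG25 at chrVII:610081-610127 (plus, 463) and DAN1 at chrX:709884-709930 (minus, 203, reverse complement). In ERG25 the capitals mark both copies.
ERG3: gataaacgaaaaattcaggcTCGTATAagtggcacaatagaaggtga
ERG25: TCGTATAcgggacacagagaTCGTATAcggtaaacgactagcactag
DAN1: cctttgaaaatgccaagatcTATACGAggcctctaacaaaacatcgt

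Sulfate assimilation and methionine genes were divided. Of 35 tested, 14 were higher at 3 h and 7 lower, and the median log2 change was 0.19. Of the 14, 8 were early rises that continued. MET2, homoserine acetyltransferase, had 44.6, 46.5 and 44.9 CPM at 3 h and 16.1, 14.7 and 17.3 CPM at 1 h, and rose by 1.5 ± 0.11 (edgeR adjusted p = 5.37e-07) on top of a first-hour rise of 1.7. STR3, cystathionine beta-lyase, rose by 1.48 after 1.99, and the sulfate permease SUL2 rose by 1.52 with a first-hour change of 0.15 that did not pass the test. The sulfate-activating enzyme MET3 rose by 1.14, and the S-adenosylmethionine synthetase SAM2 by 1.22. On the other side, HOM3, which starts the shared branch toward threonine and methionine, and the folate reductase MET13 fell by 0.63 and 0.62, and MET13 lost the call without 3 h replicate 3 or 1 h replicate 1 or 2 and with total counts. The 7 that were lower became 4 without 1 h replicate 2 or 3 h replicate 3, and 3 with total counts.

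Genes that build ribosomes and genes that encode ribosomal proteins parted after 1 h. Of 95 ribosome biogenesis genes 43 were higher at 3 h and 1 was lower, with a median log2 change of 0.22. Total-count scaling raised this to 69 higher, 0 lower and a median of 0.35. In the first hour 39 had fallen and 6 had risen, and the 43 comprised 25 receding falls, 17 that began after 1 h and 1 continuing rise. Of 137 cytosolic ribosomal protein genes 80 were lower at 3 h and 13 higher, with a median of -0.24, and with total counts 57 were lower and 27 higher, with a median of -0.12. Of the same genes, 133 had fallen and 0 had risen in the first hour, with a median of -0.99, so that 79 were early falls that continued and 11 were early falls that receded.

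NOP7, an assembly factor of the large ribosomal subunit, had 607, 597 and 615 CPM at 3 h and 428, 401 and 440.0 CPM at 1 h. Its log2 change of 0.52 ± 0.04 (edgeR adjusted p = 1.61e-06) offset a first-hour change of -0.61, and the 3 h libraries came near the 636 to 653 CPM of 0 h. ROK1, an RNA helicase of small-subunit assembly, rose by 0.50 after falling by 0.41. Subunits of RNA polymerases I and III and their factors followed, with 13 of 30 higher (21 with total counts) and 0 lower and a median of 0.25. RPC34 of polymerase III rose most among them, by 0.73. The PAC element GCGATGAG occurs in the 300-base window of 55 of the 95 biogenesis genes, against 4.28% of all promoters and 10.3% of those of the receding falls as a class. NOP7 (chrVII:695266-695313, plus strand, match starting 131 bases before the start) and ROK1 (chrVII:182263-182310, plus, 107) show how alike the context can be, with a run of A and T before the capitals.
NOP7: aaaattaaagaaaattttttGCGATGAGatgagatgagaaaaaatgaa
ROK1: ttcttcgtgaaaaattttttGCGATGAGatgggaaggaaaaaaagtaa

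Most yeast ribosomal proteins are encoded by a pair of genes, and the copies of several pairs moved apart. Of 59 pairs with both copies tested, both copies were lower in 18, both were higher in 0, 1 copy alone was called in 26, neither in 7, and the copies moved in opposite directions in 8. In 18 of the 58 pairs that could be aligned, a stretch at least 95% identical was found, and how reads were divided there is uncertain. The other pair, RPL41, was not compared. That leaves 5 opposite pairs with no such stretch, namely RPL9, RPL22, RPL33, RPL36 and RPS9. RPL9A had 407, 411 and 377 CPM at 3 h and 799, 776 and 821 CPM at 1 h, and fell by 1.00 ± 0.06 (edgeR adjusted p = 1.03e-07). RPL9B had 251, 270.1 and 245 CPM at 3 h and 130.3, 135 and 136 CPM at 1 h, and rose by 0.93 ± 0.07 (edgeR adjusted p = 3.32e-07). The copies stood farther apart at 1 h than at 3 h, when every RPL9A value still lay above every RPL9B value. Their best stretch is 94.2% identical, just under the limit. RPS9A went the other way: it had 396.5, 432 and 438 CPM at 3 h and 163, 165 and 174 CPM at 1 h, and rose by 1.33 ± 0.10 (edgeR adjusted p = 7.24e-07), while RPS9B fell by 0.51. Of the 13 ribosomal protein genes that rose, 10 were B copies.

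**Figure D4:**
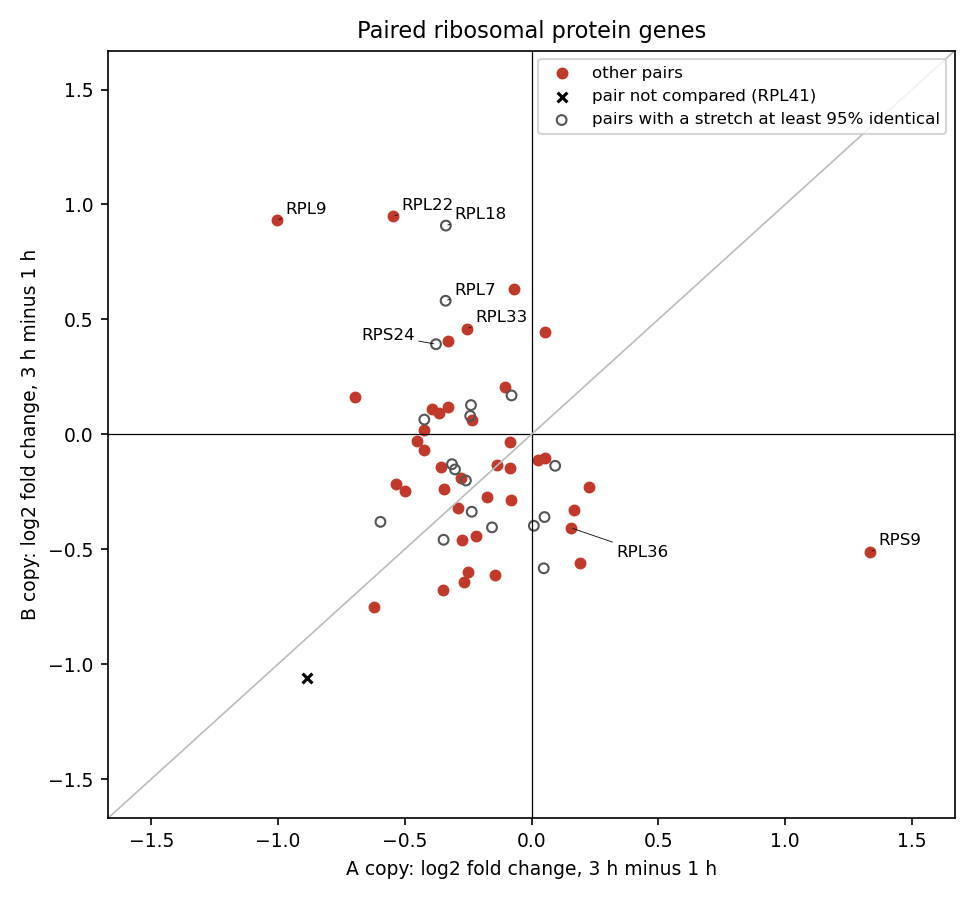
Log2 fold change at 3 h against 1 h of the B copy (vertical) against the A copy (horizontal) of 59 ribosomal protein gene pairs. Open circles are pairs with a stretch at least 95% identical, the cross is the pair not compared, the grey line marks equal change, and the 8 pairs whose copies were called in opposite directions are labelled. In 18 pairs both copies fell and in 0 both rose, and RPL9 and RPS9 lie farthest from the line.

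Histone genes rose as a group, 9 of 10 higher and 0 lower, with a median log2 change of 0.46 after -1.29 in the first hour. HTB2, histone H2B, had 319, 325 and 351 CPM at 3 h and 200.0, 200.3 and 212 CPM at 1 h, a log2 change of 0.70 ± 0.08 (edgeR adjusted p = 2.53e-05). The groups did not overlap, and the 3 h libraries were still below the 572 to 623 CPM of 0 h. The exception was HHT2 of histone H3, at 0.07. Among the 10, HHF1 and HHF2 are 97.4% identical over their length, so how reads were divided between them is uncertain.

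Oxidant and drug defence genes were among the early rises that receded. Of 24 Yap1 targets 14 were lower at 3 h and 2 higher, with a median log2 change of -0.51, where 19 had risen in the first hour with a median of 0.81. Of the 14, 12 were receding rises. SRX1, sulfiredoxin, had 24.3, 24.5 and 23.3 CPM at 3 h and 49.6, 54.5 and 51.1 CPM at 1 h, and fell by 1.11 ± 0.09 (edgeR adjusted p = 7.61e-07) after a first-hour rise of 3.25. It stayed well above its 4.56 to 5.98 CPM at 0 h. GPX2, a glutathione peroxidase, fell by 1.27 and thioredoxin TRX2 by 0.97, and YAP1 itself fell by 0.40. CCP1, cytochrome c peroxidase, fell by 1.13, where its first-hour change was 0.14. The exceptions were the old yellow enzymes OYE2 and OYE3, which rose by 0.27 and 0.59. OYE3 lost the call without 3 h replicate 1 or 1 h replicate 2, at edgeR adjusted p of 0.0715 and 0.0519.

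GRE2, methylglyoxal reductase, had 108, 108 and 108.5 CPM at 3 h and 299, 271 and 246 CPM at 1 h. It fell by 1.33 ± 0.07 (edgeR adjusted p = 1.58e-08) after rising by 3.17, and the 3 h libraries still lay above the 27.9 to 31.4 CPM of 0 h. PDR5, the main multidrug exporter of the plasma membrane, had 960, 931 and 865 CPM at 3 h and 2264, 2140 and 1994 CPM at 1 h. It fell by 1.22 ± 0.07 (edgeR adjusted p = 2.16e-08), which gave back its first-hour rise of 1.02 in full. Of 15 pleiotropic drug resistance genes 10 were lower and 0 higher, with a median of -0.48. The exporter SNQ2 fell by 0.87, and the weak-acid exporter PDR12 fell by 1.27 although it had changed by only 0.03 in the first hour. Of 20 carbonyl and drug detoxification genes 8 were lower and 2 higher, and the 8 became 5 without 1 h replicate 1, 1 h replicate 2 or 3 h replicate 3, or with total counts. In both windows these genes had a median of -0.15 with the Yap1 element and -0.23 without it.

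Cytosolic chaperone genes receded as well. Of 32 tested 21 were lower at 3 h and 3 higher, with a median log2 change of -0.38 after 0.55 in the first hour, and 18 of the 21 were receding rises. HSC82, the constitutive Hsp90, had 2998, 3178 and 3174 CPM at 3 h and 7428, 6954 and 7193 CPM at 1 h, and fell by 1.21 ± 0.05 (edgeR adjusted p = 4.55e-09). It ended below its 0 h libraries, which held 4678 to 5228 CPM. HSP82, the inducible Hsp90, fell by 1.12 ± 0.08 but stayed 0.64 above 0 h on the log2 scale. The Hsp90 partners CPR6 and STI1 fell by 1.29 and 1.02, and the Hsp70 gene SSA2 by 1.10, with 96.4% identity to SSA1, which fell by 0.40, so their shares are uncertain.

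The 3 chaperone genes that rose were the small heat shock gene HSP26, the stress protein gene HSP12 and the Hsp70 gene SSA3. HSP26 had 235, 249.6 and 249 CPM at 3 h and 100.4, 93.0 and 95.5 CPM at 1 h, a log2 change of 1.35 ± 0.13 (edgeR adjusted p = 1.23e-05). HSP12 had 135, 145 and 149 CPM at 3 h and 43.6, 33.4 and 30.9 CPM at 1 h, a log2 change of 1.99 ± 0.51 (edgeR adjusted p = 0.0157). The groups stood apart, but leaving out a 1 h library ended the call in the case of replicate 2, at an adjusted p of 0.0576, and in that of replicate 3, at 0.054, and 1 of its 0 h libraries, at 5.76 CPM, lay far below the other 2 at 54.3 and 48.7 CPM, which widens the shared estimate of spread for this gene. Both are targets of the stress activators Msn2 and Msn4, whose list as a whole was nearly still, with 4 of 36 higher, 5 lower and a median of -0.01. The 5 became 3 without 3 h replicate 2 or 3 or any 1 of the 1 h libraries, and 9 without 0 h replicate 3, and its median changed to -0.22 when 3 h replicate 1 was left out, to 0.12 when 1 h replicate 1 was and to -0.15 when 1 h replicate 3 was. The heat shock element, bound by Hsf1, occurs in the 300-base window of 8 of the 32 chaperone genes, against 0.801% of all. Of these 8, 6 fell and 0 rose, with a median of -0.59, and of the 24 without it 15 fell and 3 rose, with a median of -0.35.

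Proteasome genes had the largest share of members moving one way among the lists of more than 10 genes. Of 34 subunit and assembly genes 32 were lower at 3 h and 0 higher, with a median log2 change of -0.45, and with total counts 29 were lower, with a median of -0.33. In the first hour 25 had risen, with a median of 0.21, so that 24 were receding rises and 8 were falls that began after 1 h. PRE1, a subunit of the catalytic core, had 177.5, 176 and 179.8 CPM at 3 h and 281, 269.7 and 279 CPM at 1 h. It fell by 0.64 ± 0.05 (edgeR adjusted p = 1.45e-06) after a first-hour rise of only 0.15, and the 3 h libraries lay below the 238 to 256 CPM of 0 h. RPN7 and RPT2 of the regulatory particle fell by 0.64 and 0.62. RPN4, the activator of these genes, stood at -0.09 and did not pass the test (edgeR adjusted p = 0.287), after a first-hour rise of 1.08.

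The Rpn4 element GGTGGCAAA occurs in the 300-base window of 27 of the 34 proteasome genes, against 1.29% of all promoters and 8.15% of those of the receding rises. All 27 fell, with a median of -0.46, and of the 7 without a match 5 fell, with a median of -0.24. Stretches are shown for the 3 subunit genes above: PRE1 at chrV:177673-177721 (plus strand, match starting 142 bases before the start), RPN7 at chrXVI:742280-742328 (plus, 154, reverse complement) and RPT2 at chrIV:437896-437944 (plus, 131).
PRE1: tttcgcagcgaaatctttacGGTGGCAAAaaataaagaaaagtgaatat
RPN7: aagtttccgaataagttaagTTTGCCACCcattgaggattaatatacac
RPT2: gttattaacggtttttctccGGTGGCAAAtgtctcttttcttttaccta

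Genes of arginine synthesis and breakdown, an amino acid held mostly in the vacuole, rose together in the first hour and receded after it. Of 15 tested 10 were lower at 3 h and 0 higher, with a median log2 change of -0.56 after 0.78 in the first hour, when 13 had risen. ARG1, argininosuccinate synthetase, had 20.5, 17.9 and 22.1 CPM at 3 h and 82.4, 79.3 and 74.8 CPM at 1 h, and fell by 1.96 ± 0.17 (edgeR adjusted p = 3.35e-06). The 3 h libraries lay within the 13.7 to 27.7 CPM of 0 h, which spread widely. ARG4, argininosuccinate lyase, fell by 1.58 and ended 1.04 below 0 h on the log2 scale. CAR1, arginase of the breakdown route, fell by 0.87 but stayed 1.56 above 0 h. Across the Gcn4 targets of amino acid synthesis more widely, 27 of 45 were lower and 3 higher, with a median of -0.34, and the 3 were SER3 and SER33 of serine synthesis and ARO4 of aromatic amino acid synthesis, which lost the call in 6 of the 9 fits that left out 1 library. LYS20, homocitrate synthase, fell by 1.26, with 95.3% identity to LYS21, which stood at -0.04, and GCN4 itself stood at -0.05.

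Genes of mating held most of the largest decreases, among called genes with a mean of at least 10 CPM at 1 h. All 7 a-specific genes were lower at 3 h than at 1 h, with a median log2 change of -1.72, after a first hour in which 5 had risen and 0 had fallen, with a median of 0.37. In haploid a cells these genes are switched on by Mcm1 and raised further by Ste12 under pheromone, which alpha cells secrete. AGA2, the adhesion subunit of the a-agglutinin, had 20.8, 21.9 and 22.9 CPM at 3 h and 92.6, 91.9 and 95.9 CPM at 1 h. It fell by 2.10 ± 0.08 (edgeR adjusted p = 1.48e-09). BAR1, the protease that degrades alpha pheromone, had 71.8, 73.8 and 65.9 CPM at 3 h and 273, 305 and 297.5 CPM at 1 h, and fell by 2.05 ± 0.10 (edgeR adjusted p = 1.57e-08). In both genes every 3 h library also lay below every 0 h library, at 66.8 to 76.9 CPM for AGA2 and 219 to 296 CPM for BAR1.

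The a-pheromone genes MFA1 and MFA2 fell by 1.72 ± 0.12 and 1.66 ± 0.09. MFA1 had 14.7, 13.8 and 16.4 CPM at 3 h and 45.9, 49.2 and 52.9 CPM at 1 h. STE2, the receptor for alpha pheromone, had 212, 219 and 234.5 CPM at 3 h and 542, 568 and 607 CPM at 1 h, and fell by 1.37 ± 0.12 (edgeR adjusted p = 3.04e-06). ASG7 fell by 1.80, and STE6, the exporter of a-pheromone, fell least, by 0.95. Among 25 genes of the pheromone pathway and Ste12 targets 13 were lower and 1 higher, with a median of -0.57. PRM1, FUS1 and KAR4 of cell and nuclear fusion fell by 2.03, 1.56 and 1.30, AGA1 by 1.65, and the feedback inhibitor SST2 by 1.5. The kinase FUS3 fell by 0.98 and the arrest factor FAR1 by 0.93. The signalling genes STE11, STE7, STE18 and STE5 did not pass the test, at -0.18, -0.15, -0.15 and -0.05, STE12 fell by 0.28, a call lost with total counts, and PRM4 rose by 0.45. MCM1 stood at 0.04.

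Markers of the other mating type did not follow a common course. SAG1, the alpha-agglutinin, had 18.0, 17.2 and 20.5 CPM at 3 h and 18.1, 17.6 and 18.7 CPM at 1 h, and STE3, the a-pheromone receptor of alpha cells, had 4.45, 7.53 and 6.01 CPM at 3 h and 3.14, 4.20 and 3.84 CPM at 1 h. The SAG1 groups overlapped, at a log2 change of 0.04. STE3 rose by 0.68 at a level of 41 to 71 counts at 3 h and 30 to 43 counts at 1 h (edgeR adjusted p = 0.0142). It lost the call without 1 h replicate 1, at an edgeR adjusted p of 0.0579, and without 3 h replicate 2, at 0.0721. The pheromone genes MF(ALPHA)1 and MF(ALPHA)2 were at 0 to 3 counts.

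The pheromone response element TGAAACA occurs in the 300-base window of 5 of the 7 a-specific genes and 13 of the 25 pheromone genes, against 7.22% of all. Within 500 bases it is in 7 of the 7, against 11.6%. Of the 13 pheromone genes with a match in the 300-base window, 9 fell and 0 rose, with a median of -0.98. Of the 12 without, 4 fell and 1 rose, with a median of -0.27. The a-specific genes showed no such difference in that window. The 5 with a match had a median of -1.66 and the 2 without one a median of -1.76, and all 7 fell. Stretches are shown for 3 genes with large decreases: AGA2 at chrVII:437006-437052 (minus strand, match starting 199 bases before the start, reverse complement), BAR1 at chrIX:322138-322184 (plus, 184) and FUS1 at chrIII:71623-71669 (plus, 160).
AGA2: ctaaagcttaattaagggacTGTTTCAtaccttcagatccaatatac
BAR1: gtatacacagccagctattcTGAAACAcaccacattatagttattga
FUS1: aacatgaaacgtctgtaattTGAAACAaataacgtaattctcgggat

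Besides the ribosomal proteins, several metabolic groups held falls of the first hour that went on. Of 14 genes of leucine and other branched-chain amino acid synthesis 8 were lower at 3 h and 0 higher, and all 8 were early falls that continued. LEU1, the isopropylmalate isomerase with an iron-sulfur cluster, had 152, 169 and 179.6 CPM at 3 h and 368, 337 and 374 CPM at 1 h, against 1554 to 1583 CPM at 0 h. It fell by 1.11 ± 0.08 (edgeR adjusted p = 5.79e-07) after a first-hour change of -2.13. ILV3, the dihydroxyacid dehydratase, also an iron-sulfur enzyme, fell by 0.99 after -0.68. Of 35 iron-sulfur and heme proteins 20 were lower and 10 higher, with a median of -0.43, and the 10 that rose included the sterol and fatty acid oxygenases ERG3, ERG5, ERG11 and OLE1 and the sulfite reductase genes MET5 and MET10. Of the 20 that were lower, 10 were continuing falls, 8 began after 1 h and 2 were receding rises.

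ACO1, mitochondrial aconitase, had 129, 142 and 144 CPM at 3 h and 315.5, 313 and 309.5 CPM at 1 h, and fell by 1.17 ± 0.07 (edgeR adjusted p = 8.36e-08) after -1.08. GLT1, the iron-sulfur enzyme glutamate synthase, had 129, 132.5 and 141 CPM at 3 h and 332.5, 297 and 292 CPM at 1 h, and fell by 1.19 ± 0.06 (edgeR adjusted p = 1.58e-08) after -1.33. In both genes the 0 h, 1 h and 3 h libraries formed separate, descending groups. Of 18 genes of the tricarboxylic acid cycle 10 were lower and 0 higher, and 7 of the 10 began after 1 h, among them SDH3 and CIT1, which fell by 0.87 and 0.62 with first-hour changes of -0.05 and 0.17. The respiratory chain and ATP synthase had 13 of 32 lower and 1 higher. Of the 13, 8 began after 1 h, 3 were continuing falls and 2 were receding rises. The 1 that was higher lost its call without any 1 of the 3 h libraries, 1 h replicate 2 or 3 or 0 h replicate 2. CYC1, cytochrome c, fell by 0.94, while ATP1 and ATP2 of the ATP synthase stood at 0.07 and 0.06 and passed the test only with total counts. Of 17 glycolysis and fermentation genes 10 were lower and 1 higher, and 8 of the 10 were continuing falls. With total counts, 6 glycolysis genes were lower and 4 higher, and 6 genes of the tricarboxylic acid cycle were lower and 3 higher. ENO2, enolase, and FBA1, aldolase, fell by 0.60 and 0.52, and the minor glyceraldehyde phosphate dehydrogenase TDH1 rose by 0.85.

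**Figure D5:**
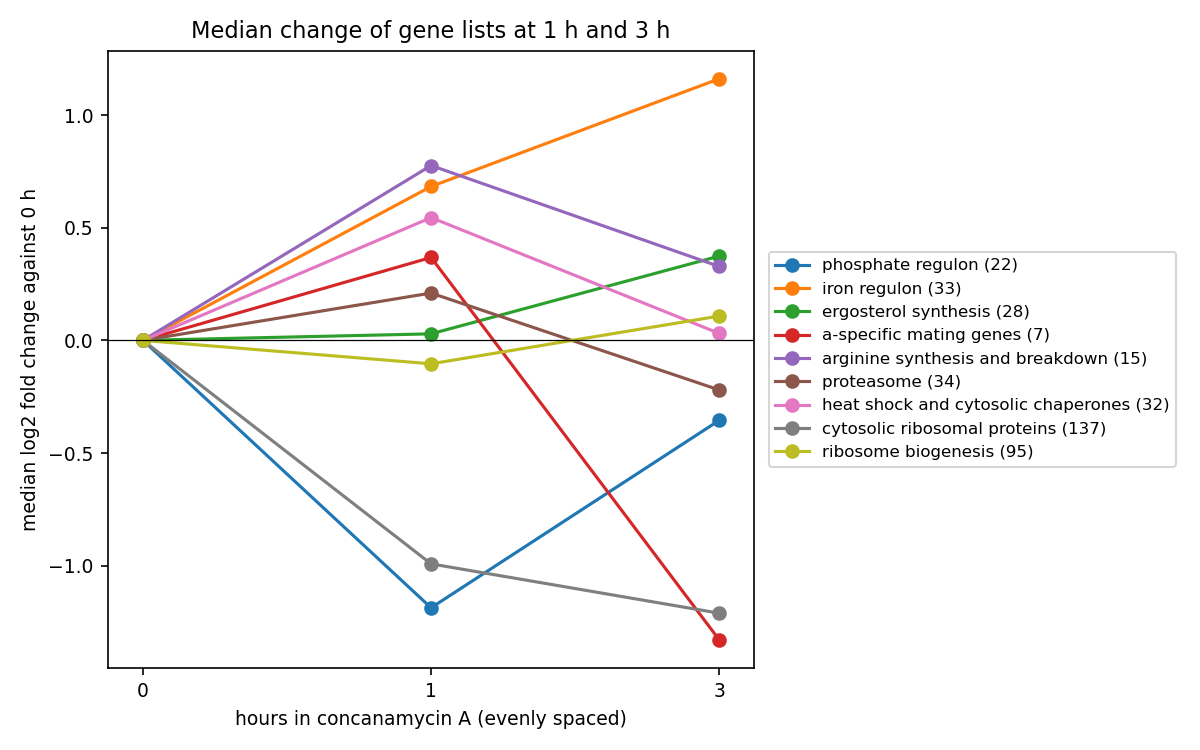
Median log2 fold change against 0 h for 9 gene lists at 0, 1 and 3 h (evenly spaced on the axis, 0 by definition at 0 h), with the number of tested members in brackets. The phosphate list drops to -1.19 at 1 h and returns to -0.36 at 3 h, the a-specific list is at 0.37 at 1 h and -1.33 at 3 h, and the ribosomal protein list goes on down while ribosome biogenesis comes back above 0.

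Genes for the target of the compound changed by small amounts. Of 25 V-ATPase subunit and assembly genes 7 were lower at 3 h and 1 higher, with a median log2 change of -0.09, and with total counts the median was 0.03, with 2 lower and 3 higher. VPH1, the vacuolar form of a V-ATPase subunit, had 734, 716 and 700.4 CPM at 3 h and 880.4, 857 and 838 CPM at 1 h, and fell by 0.26 ± 0.05 (edgeR adjusted p = 0.00102). The groups did not overlap. VMA1, the catalytic subunit, had 1805, 1814 and 1708 CPM at 3 h and 1958, 1782 and 1704 CPM at 1 h, with overlapping groups and a log2 change of -0.03. The assembly factor VOA1 fell by 0.35. Without 1 h replicate 2, 3 h replicate 1 or 3 h replicate 3, the members that were lower numbered 3, 4 and 3, and with the 3 h and 1 h libraries alone they numbered 11. The 1 that was higher lost its call without 3 h replicate 2 or 3 or 1 h replicate 2 or 3, and with DESeq2.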

How the data were processed

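Total RNA from 3 libraries at each of 0, 1, 3 and 6 h was sequenced as single reads after ribosomal RNA depletion, per the labels' protocols. The values are raw counts per feature, which the authors made with STAR 2.5.2b and featureCounts 1.5.1 on genome build R64, per the submitters' processing notes. Not given in the sources used here are the release of the annotation, the strand setting and how multi-mapping reads were counted.

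Counts were tested in R 4.3.3 with edgeR 4.0.16 (TMM scaling, filterByExpr, robust quasi-likelihood fit of all 12 libraries with time as a factor, 8 residual degrees of freedom, Benjamini-Hochberg adjustment over 5615 features, threshold 0.05). The biological coefficient of variation was 8.68%. Totals at 1 h and 3 h were 8580004 to 10479391 counts, which limits the precision for genes with few counts. CPM values are TMM-scaled, and SE is that of the log2 fold change. Classes combine the calls at 3 h against 1 h with those at 1 h against 0 h. Within a time, libraries differed by more than sampling noise, with a chi-square over its degrees of freedom of at least 3.23. Scripts were tested on simulated data.

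Gene lists are described by counts and medians. The members and lists were chosen with earlier results of these data known. Named genes are those with the largest changes at a mean of at least 10 CPM and no overlap between times, among all features, in each class and, past the threshold alone, in each list. Members of a printed list may be named besides, and so are the regulators of the lists. YHB1, STE3 and SAG1, and the regulators, were named after their values were seen. Promoter letters were read from RefSeq's genome of build R64 in a window of 250 bases before to 50 after the start, and, in an alternative chosen after seeing the data, of 500 bases before it. Copies were compared with blastn 2.17.0 at a minimum identity of 95%. Alternatives were other scalings, filters, tests, call rules, sets of libraries and a replicate term.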

Additional observations from a re-analysis of the deposited data

How the results depend on the processing

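Total-count scaling gave 1734 features higher and 552 lower at 3 h against 1 h, and 2575 higher and 602 lower at 1 h against 0 h. With it, 865 rises and 80 falls began after 1 h, and 587 early rises and 89 early falls continued. Under it the medians of 11 of 49 gene lists changed sign, all at most 0.106 in size before and 0.105 after, since the scaling shifts every value; the autophagy list stood at 0.016 against -0.106. At an adjusted p under 0.01, 529 were higher and 655 lower, 290 rises and 219 falls receded, 259 rises began, and 51 rises and 129 falls continued. Against a 1.2-fold change (glmTreat), 265 were higher and 307 lower at 3 h against 1 h, 656 higher and 608 lower at 1 h against 0 h, 128 rises and 94 falls receded, 155 rises and 133 falls began, and 16 rises and 46 falls continued. With at least 1.5-fold required, these counts were 214, 171, 409, 432, 63, 54, 101, 41, 16 and 16 in that order. These stricter rules call fewer features by construction. Leaving out 1 library at a time gave 666 to 1214 higher and 743 to 1187 lower at 3 h against 1 h, and 1041 to 1317 higher and 1101 to 1649 lower at 1 h against 0 h. It gave 341 to 474 receding rises, 279 to 511 receding falls, 272 to 540 rises that began, 217 to 431 falls that began, 59 to 163 continuing rises and 155 to 282 continuing falls. The lowest count of rises that began, 272, was without 3 h replicate 3. Continuing rises numbered 72, 59 and 72 when replicate 1, 2 or 3 at 1 h was left out, 71 when 3 h replicate 3 was, and 163 when 0 h replicate 3 was. Of the features called at 3 h against 1 h, 553 higher and 667 lower were called in every one of these fits. DESeq2 1.42.0 called 844 higher and 970 lower, and the 6 libraries at 3 h and 1 h alone 1207 and 1360. With the replicate letter of the column headings as a replicate block, 1167 were higher and 1199 lower. The labels do not say what the letter marks. Libraries at 1 h and 3 h that share it deviated together at r = 0.238, 0.0434 and 0.344, the first and last above the -0.295 to 0.0497 of the others. Pairing was not assumed, because the meaning of the letter is not given, although the block raised the number of calls. Of 167 tested genes whose change between 1 h and 3 h is described in the text, 138 were called. Of these, 12 lost the call without at least 1 library, 3 others lost it in another fit only, the rest were called in every fit, and 0 changed direction in any. Of the 29 named as not passing, 7 passed in at least 1 other fit. Depth limits the low genes: FRE5, SPL2 and PRM1 rest on few counts at their lower time, and 601 features had too few counts to test.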

Other observations

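Several gene groups outside the pathways above had few calls or moved in both directions between 1 h and 3 h. Of 71 mitochondrial ribosomal protein genes 2 were higher at 3 h and 2 lower, and of 15 hexose transporter genes 1 was higher and 0 lower. With total counts 10 mitochondrial ribosomal protein genes were higher and 0 lower, and with the 3 h and 1 h libraries alone 7 were lower. The hexose transporter call was lost without 3 h replicate 1 or 2 or 1 h replicate 2 or 3. Among 34 genes of DNA replication and nucleotide reduction 8 were higher and 4 lower, and the 8 became 13 without 0 h replicate 3 and 19 with total counts. The 4 became 2 without 3 h replicate 1 or 2 or 1 h replicate 2 or 3, and 0 with total counts. HUG1, a small protein of the DNA damage checkpoint, rose by 1.03 and the ribonucleotide reductase subunit RNR3 by 0.74, while CDC6, of the pre-replicative complex, fell by 0.47 and the single-strand binding protein RFA1 by 0.31, a call lost with total counts. CDC6 lost the call without 1 h replicate 2 or 3 or 3 h replicate 1 or 2, at edgeR adjusted p of 0.0745 to 0.106. Of 25 cyclins and cell cycle regulators 5 were higher (3 without 1 h replicate 1 or 2, 8 without 0 h replicate 3 and 10 with total counts) and 3 lower, with the mitotic cyclin CLB1 and the G1 cyclin CLN2 rising by 0.79 and 0.59.

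Cell-surface and lipid genes were mixed. IZH4, of the membrane receptor family linked to zinc and sterol, had 108, 103 and 119 CPM at 3 h and 30.4, 34.7 and 41.2 CPM at 1 h, and rose by 1.63 ± 0.12 (edgeR adjusted p = 8.4e-07), the largest change of 18 zinc response genes, of which 6 were higher and 2 lower. PBI1 had 101.6, 72.2 and 55.5 CPM at 3 h and 12.02, 13.5 and 16.0 CPM at 1 h, with no overlap but a wide spread at 3 h, and rose by 2.46 ± 0.26 (edgeR adjusted p = 7.04e-05). TIP1, a mannoprotein of aerobic cell walls, fell by 1.16, in a list of 25 cell wall genes with 9 lower and 3 higher (5 and 5 with total counts). ELO1, which lengthens medium-chain fatty acids, fell by 1.08, and FAA4, an acyl-CoA synthetase, rose by 0.96. The endoplasmic reticulum chaperone KAR2 fell by 0.70 after rising by 1.03, in an unfolded protein response list with 4 of 19 lower and 3 higher (5 higher without 0 h replicate 3 and 7 with total counts). The vacuolar mannosidase AMS1 rose by 1.18, and the vacuolar proteases PEP4 and CPS1 fell by 0.25 and 0.42, of which PEP4 lost the call in 7 of the 9 fits that left out 1 library and with total counts.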
